A study of Mus musculus with 17 samples.

Results

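The genes described here are complement components and anaphylatoxin receptors in mouse lung. They are the 3 chains of C1q (C1qa, C1qb, C1qc), the components C2, C3, factor B (Cfb) and properdin (Cfp), and the receptors C3ar1 and C5ar1. They were chosen by name, with earlier results of these data known, and found by the gene symbol of their probe sets. Probe sets with 1 symbol were used, and the brightest over all arrays where a gene had several. Of the 9 listed genes 8 were measured, among 19751 genes in all, and none of the 8 had a second probe set. C3, the central component, had no probe set with a single symbol and is not analysed here.

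The lungs of 17 Balb/c mice were profiled singly on Affymetrix Mouse Gene 1.0 ST arrays. The anti-RGMb group (6 mice) was sensitized and challenged with ovalbumin, an egg protein used as an allergen, and was given a monoclonal antibody to RGMb, which binds neogenin and serves bone morphogenetic proteins as a co-receptor. The isotype group (5 mice) had the same ovalbumin treatment and an isotype control antibody. The saline group (6 mice) had saline at both steps, and the labels give it no antibody. No group had anti-RGMb without ovalbumin, so an action of the antibody on the unchallenged lung and one on the response to ovalbumin cannot be told apart, and the isotype minus saline difference includes any action of the isotype antibody. Lungs were taken at 1 time point. The design text names 2 sets of separate mice, 'First replicate' and '2nd replicate', which are called experiment 1 and experiment 2 here. Experiment 1 held 3 mice of each group, and experiment 2 held 3 anti-RGMb, 2 isotype and 3 saline mice. All 8 lung epithelium markers checked were above the lower quartile of every array.

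Complement is a cascade of plasma and tissue proteins that marks microbes, immune complexes and dying cells. C1q recognises the target and starts the classical pathway, C2 supplies the protease of that pathway's C3 convertase, and factor B supplies the protease of the alternative pathway's convertase, which properdin stabilises. Cleavage of C3 and of C5 frees the anaphylatoxins C3a and C5a, which act through the receptors encoded by C3ar1 and C5ar1 on myeloid and other cells and have been studied as mediators of allergic airway disease. The liver makes most plasma complement, whereas C1q and properdin come mainly from myeloid cells.

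The deposited values were linear intensity, whose array medians lay at 120 to 125 in experiment 1 and at 362 to 386 in experiment 2. Levels are therefore given as log2 intensity minus the mean of the saline mice of the same experiment, called the relative level below. Differences between groups are log2 differences ± SE from limma with a term for the experiment, and a gene passed where its p, adjusted by Benjamini-Hochberg over the 19751 genes, was under 0.05. No measured member was below the lower quartile of its array on any of the 17 arrays. In these whole-lung samples, fewer cells of a type and less RNA per cell cannot be told apart.

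In isotype mice, 7 of the 8 measured genes were higher than in saline mice and 0 were lower. Of all genes, 14.6% were higher and 21.0% were lower in this comparison. In 6 of the 8 genes every isotype mouse was above every saline mouse in both experiments, as in 11.7% of all genes. The median log2 difference was 2.26 over the 8 genes and -0.04 over all genes. In anti-RGMb mice compared with isotype mice, 6 of the 8 were lower and 1 was higher, beside 10.0% lower and 11.1% higher of all genes. For 5 genes every anti-RGMb mouse was below every isotype mouse of its experiment, as for 7.26% of all genes. The median was -0.65 over the 8 genes and 0.03 over all genes. In anti-RGMb mice compared with saline mice, 6 of the 8 were higher and 0 were lower, beside 4.26% higher and 2.24% lower of all genes. For the same 6, every anti-RGMb mouse was above every saline mouse of its experiment, as for 4.70% of all genes. These 3 comparisons share arrays, so they are not independent of each other. Because the members were chosen with earlier results of these data known, their contrast with all genes is no independent support.

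**Figure D1:**
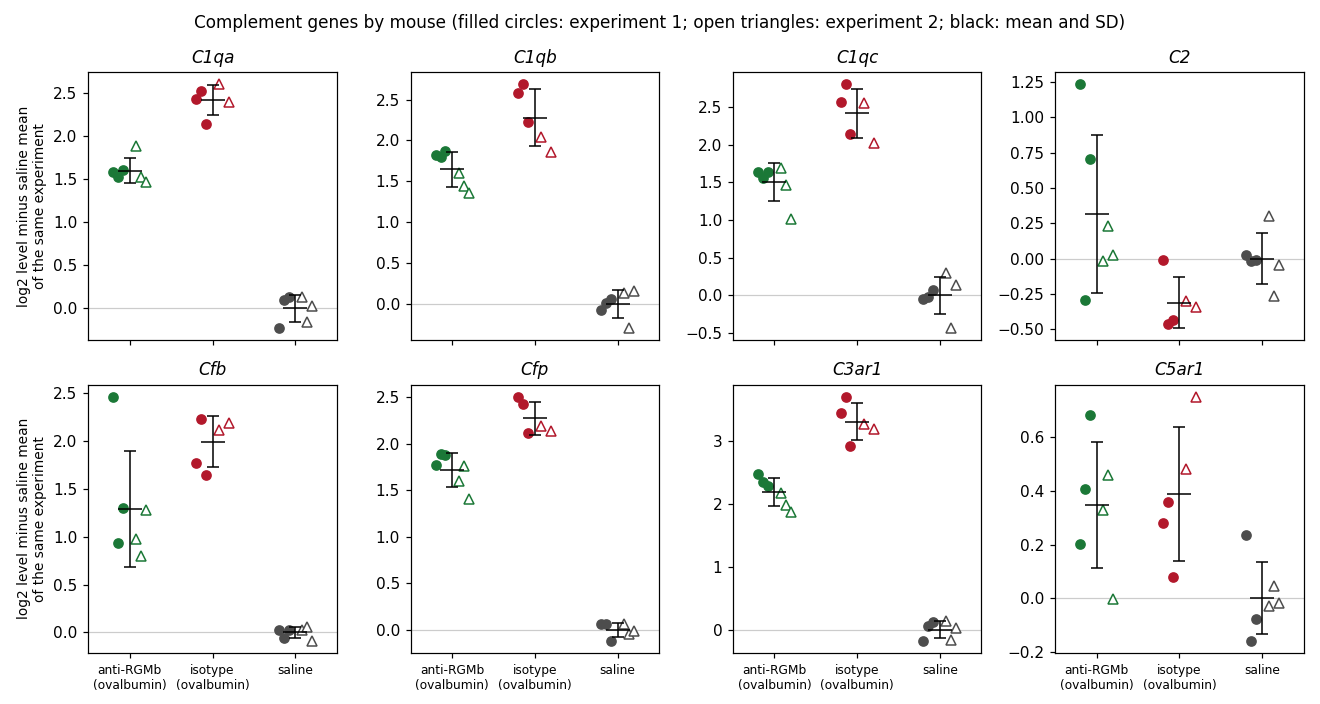
Relative level (log2 intensity minus the mean of the saline mice of the same experiment, vertical axis) of the 8 measured genes in each mouse, by group. Filled circles are experiment 1, open triangles experiment 2, and black bars the mean and SD over mice. Within each experiment anti-RGMb mice lie between isotype and saline mice for C1qa, C1qb, C1qc, Cfp and C3ar1. For Cfb 1 anti-RGMb mouse, and for C2 a pair of them, stands above the other mice of the group.

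The recognition molecule of the classical pathway is assembled from A, B and C chains encoded by C1qa, C1qb and C1qc. In the order of genes in RefSeq's GRCm38.p6 annotation the 3 genes are neighbours on chromosome 4 (C1qb, C1qc, C1qa). RefSeq promoter windows of 300 bases, from 250 bases before to 50 after the gene start, were found for C1qb, C1qc, C3ar1, C5ar1 and Cfp. Those of C1qb and C1qc are shown because these neighbouring genes moved together, in GRCm38.p6 at chr4:136886151-136886450 and chr4:136892865-136893164, both on the minus strand and written 5′ to 3′ along the gene.
C1qb: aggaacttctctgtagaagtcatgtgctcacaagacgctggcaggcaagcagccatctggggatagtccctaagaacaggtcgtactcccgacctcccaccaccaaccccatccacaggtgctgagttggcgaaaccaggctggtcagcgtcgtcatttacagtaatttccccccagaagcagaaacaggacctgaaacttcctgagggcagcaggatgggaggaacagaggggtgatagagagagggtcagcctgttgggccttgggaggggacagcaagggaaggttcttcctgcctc
C1qc: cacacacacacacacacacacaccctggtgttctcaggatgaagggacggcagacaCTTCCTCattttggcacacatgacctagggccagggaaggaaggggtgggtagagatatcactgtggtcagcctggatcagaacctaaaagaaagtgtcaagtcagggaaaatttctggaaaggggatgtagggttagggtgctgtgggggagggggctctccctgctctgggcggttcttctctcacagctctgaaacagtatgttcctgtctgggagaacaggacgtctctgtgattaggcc
The capitals mark the only match to 7 motifs searched in both windows on both strands. It is the core of the myeloid factor PU.1 (GAGGAAG), read on the opposite strand from -194 to -188 relative to the C1qc start, and 13.6% of the 32851 RefSeq promoters hold it. The other motifs were TGCTGAC (MAF, 4.67% of promoters), GAAANNGAAA (interferon response, 3.44%), TTCNNNGAA (STAT, 8.3%), TTCNNNNGAA (STAT6, 6.95%), TTGCNNAA (C/EBP, 10.8%) and TATAAA (the core promoter box, 13.6%), which can overlap one another. The windows of C5ar1 and Cfp held none of the 7, and that of C3ar1 held TATAAA at -235 to -230. A match or its absence describes these letters and not binding.

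C1qa had relative levels of 1.47 to 1.88 in anti-RGMb mice (median 1.55), and of 2.43, 2.53, 2.15, 2.61 and 2.39 in the 5 isotype mice. Saline mice lay at -0.23 to 0.13. The 3 groups did not overlap. C1qa fell by 0.83 ± 0.09 log2 units in anti-RGMb relative to isotype mice (a fold of 0.563, adjusted p = 1.13e-05, limma) and higher by 2.43 ± 0.09 in isotype than in saline mice (5.38-fold, adjusted p = 4.56e-12). Anti-RGMb mice were 1.60 ± 0.09 above saline mice (adjusted p = 2.12e-09).

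C1qb averaged 1.65 ± 0.22 in anti-RGMb mice, 2.28 ± 0.35 in isotype mice and 0.00 ± 0.17 in saline mice (SD over mice, n = 6, 5 and 6). Its isotype mice were at 2.58, 2.69 and 2.23 in experiment 1 and at 2.04 and 1.86 in experiment 2, and anti-RGMb mice at 1.79 to 1.87 in experiment 1 and at 1.35 to 1.60 in experiment 2. Within each experiment the groups did not overlap. C1qb fell by 0.60 ± 0.11 in anti-RGMb relative to isotype mice (adjusted p = 0.000718) and was 2.25 ± 0.11 higher in isotype than in saline mice (adjusted p = 9.88e-11). C1qc averaged 1.50 ± 0.26 in anti-RGMb mice, 2.42 ± 0.33 in isotype mice and 0.00 ± 0.25 in saline mice (SD over mice). It fell by 0.90 ± 0.15 in anti-RGMb relative to isotype mice (adjusted p = 0.000297) and was 2.40 ± 0.15 higher in isotype than in saline mice (adjusted p = 1.15e-09). For C1qc too the groups did not overlap within an experiment, although anti-RGMb mouse 3-2 lay at 1.01 and the other anti-RGMb mice at 1.47 to 1.70. Across the 17 arrays, with experiment means subtracted, the 3 genes correlated at r = 0.984 to 0.986, and at 0.821 to 0.925 with group means subtracted as well. These r values come from the same arrays and are descriptive.

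C2, which C1s cleaves to form the classical convertase with C4b, went another way. Anti-RGMb mice of experiment 1 were at 1.24, -0.29 and 0.71 and those of experiment 2 at -0.01, 0.23 and 0.03. Isotype mice were at -0.01, -0.46 and -0.44 and at -0.30 and -0.34. Saline mice ranged from -0.26 to 0.30. Anti-RGMb mice 1 and 3 of experiment 1 stood above all other mice, and anti-RGMb mouse 2 lay within the range of the isotype mice. C2 was 0.64 ± 0.20 log2 units higher in anti-RGMb than in isotype mice (adjusted p = 0.0242, limma). The difference was 0.85 in experiment 1 (adjusted p = 0.0661) and 0.40 in experiment 2 (adjusted p = 0.368), neither past the threshold. The call was lost without anti-RGMb mouse 3 (0.57, adjusted p = 0.0609). The same held without isotype mouse 2 (0.59, adjusted p = 0.061) and without isotype mouse 3 (0.59, adjusted p = 0.0524). C2 did not pass in isotype against saline mice (-0.33 ± 0.20, 95% interval -0.74 to 0.08, adjusted p = 0.225) or in anti-RGMb against saline mice (0.32 ± 0.19, interval -0.07 to 0.71, adjusted p = 0.393). An exact permutation of group labels within experiments gave unadjusted p = 0.035 for isotype against saline mice and unadjusted p = 0.02 for anti-RGMb against isotype mice. From high to low the means stood in the order anti-RGMb, saline, isotype, and neighbours in it did not pass in limma.

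Cfb, the gene of factor B, lies next to C2 on chromosome 17 in the annotation's order. Its relative levels were 2.46, 0.94 and 1.30 in anti-RGMb mice of experiment 1 and 0.97, 0.80 and 1.28 in those of experiment 2. Isotype mice had 1.77, 2.23 and 1.64 and then 2.12 and 2.19, and saline mice -0.09 to 0.06. Every ovalbumin-treated mouse was above every saline mouse, and anti-RGMb mouse 1 was above every isotype mouse. Cfb fell by 0.69 ± 0.21 in anti-RGMb relative to isotype mice (adjusted p = 0.0274) and was 1.98 ± 0.21 higher in isotype than in saline mice (3.94-fold, adjusted p = 9.87e-07). The anti-RGMb minus isotype difference was -0.32 in experiment 1 (adjusted p = 0.666) and -1.14 in experiment 2 (adjusted p = 0.0127), and the difference between experiments did not pass (adjusted p = 0.459). Without anti-RGMb mouse 1 it was -0.94 (adjusted p = 3.96e-05). It lost its call when 1 of 7 other mice was left out, with adjusted p of 0.0504 (anti-RGMb mouse 3), 0.0589 (1-2), 0.0639 (2-2), 0.0724 (2), 0.0646 (isotype mouse 2), 0.0754 (1-2) and 0.0876 (2-2). An exact permutation of group labels within experiments gave unadjusted p = 0.065 for Cfb in this comparison.

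The log2 ratio of Cfb to C2 within an array, relative to saline, averaged 0.98 ± 0.32 in anti-RGMb mice and 2.30 ± 0.37 in isotype mice (SD, n = 6 and 5). It fell by 1.33 in anti-RGMb relative to isotype mice and was 2.31 higher in isotype than in saline mice (exact permutation within experiments, 2-sided, p = 0.005 each, the smallest 200 regroupings allow, and 0.007 after adjustment over 14 ratio tests). The ratios, here and below, were chosen after the values were seen, so their p-values are no independent support. Across the 17 arrays C2 and Cfb correlated at r = 0.041 with experiment means subtracted and at 0.638 with group means subtracted too, and anti-RGMb mouse 1 was the highest of its group in both.

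Cfp encodes properdin, which stabilises the alternative C3 convertase. Its relative levels were 1.40 to 1.89 in anti-RGMb mice (median 1.76), 2.50, 2.42, 2.11, 2.19 and 2.13 in isotype mice, and -0.12 to 0.06 in saline mice. The groups did not overlap, and the spread within each was at most 0.19 (SD). Cfp fell by 0.54 ± 0.08 in anti-RGMb relative to isotype mice (adjusted p = 0.000111). It was 2.26 ± 0.08 higher in isotype than in saline mice (4.79-fold, adjusted p = 1.95e-12) and 1.72 ± 0.08 higher in anti-RGMb than in saline mice (adjusted p = 9.48e-11). The difference within each experiment passed in each comparison.

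C3ar1, the receptor of C3a, had the largest difference of the 8 genes in each of the 3 comparisons. Its intensity was 816.3, 745.3 and 718.0 in anti-RGMb mice of experiment 1, against 1606, 1914 and 1111 in isotype mice and 130.2, 152.6 and 160.2 in saline mice. In experiment 2, on that experiment's own scale, it was 2940, 2562 and 2387 in anti-RGMb mice, 6295 and 5948 in isotype mice, and 713.0, 582.5 and 661.2 in saline mice. The 3 groups were separate in both experiments, with anti-RGMb mice in the middle. C3ar1 fell by 1.10 ± 0.12 log2 units in anti-RGMb relative to isotype mice (a fold of 0.466, adjusted p = 7.47e-06). It was 3.29 ± 0.12 higher in isotype than in saline mice (9.79-fold, adjusted p = 1.95e-12), the 17th largest rise of all 19751 genes. Anti-RGMb mice were 2.19 ± 0.11 above saline mice (4.56-fold, adjusted p = 7.89e-10).

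C5ar1, the receptor of C5a, moved little. Anti-RGMb mice had relative levels of 0.20, 0.41 and 0.68 in experiment 1 and of 0.33, 0.46 and 0.00 in experiment 2. Isotype mice had 0.28, 0.36 and 0.08 and then 0.48 and 0.75, and saline mice -0.16 to 0.24. The groups overlapped. C5ar1 was 0.39 ± 0.12 higher in isotype than in saline mice (1.32-fold, adjusted p = 0.0137), by 0.24 in experiment 1 (adjusted p = 0.295) and 0.62 in experiment 2 (adjusted p = 0.00632). Without isotype mouse 2-2 it was 0.30 higher (adjusted p = 0.0589). It did not pass in anti-RGMb against isotype mice (-0.05 ± 0.12, 95% interval -0.30 to 0.20, adjusted p = 0.819). This value joins opposite signs, 0.19 in experiment 1 (adjusted p = 0.571) and -0.35 in experiment 2 (adjusted p = 0.131). In anti-RGMb against saline mice C5ar1 was at 0.35 ± 0.11 and did not pass (adjusted p = 0.0789). Exact permutation within experiments gave C5ar1 unadjusted p = 0.03 in that comparison, 0.01 in isotype against saline mice and 0.75 in anti-RGMb against isotype mice.

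The log2 ratio of C3ar1 to C5ar1 was 1.84 ± 0.27 in anti-RGMb mice and 2.92 ± 0.35 in isotype mice relative to saline (SD, n = 6 and 5). It fell by 1.04 in anti-RGMb relative to isotype mice and was 2.90 higher in isotype than in saline mice (exact permutation within experiments, p = 0.005 each, adjusted p = 0.007 over the 14 ratio tests). C5a's second receptor, C5ar2, passed in no comparison. No member's interaction, that is, experiment 2 minus experiment 1, passed over all genes (lowest adjusted p 0.26), which does not show that the experiments were alike. The interaction was -0.54 ± 0.19 for C1qb in isotype minus saline, and in anti-RGMb minus isotype it was -0.55 ± 0.21 for C5ar1 and -0.82 ± 0.40 for Cfb. Over all genes, 132 interactions passed in isotype minus saline, 93 in anti-RGMb minus isotype and 0 in anti-RGMb minus saline.

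**Figure D2:**
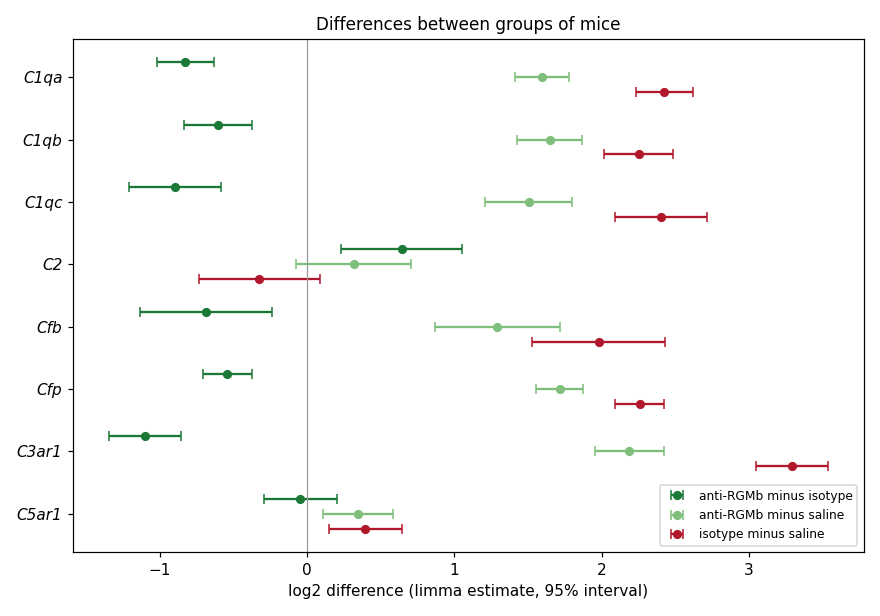
Log2 differences (horizontal axis, points, with 95% intervals as bars) of the 8 genes for anti-RGMb minus isotype, anti-RGMb minus saline and isotype minus saline. C3ar1 has the largest difference in all 3 comparisons. C2 is the only one of the 8 with a positive anti-RGMb minus isotype difference, and the interval of C5ar1 in that comparison spans 0.

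Other complement genes were taken from a list by role, of which 43 of 46 were measured besides the members. Of the 43, in anti-RGMb against isotype mice 3 were higher, 8 lower and 32 did not pass (median log2 difference 0.02). In isotype against saline mice 13 were higher, 7 lower and 23 did not pass (median 0.03). In anti-RGMb against saline mice 8 were higher, 1 lower and 34 did not pass (median 0.01). Over all genes, the shares higher and lower were 11.1% and 10.0% in the 1st of these comparisons. They were 14.6% and 21.0% in isotype against saline mice, and 4.26% and 2.24% in anti-RGMb against saline mice. Of the 4 other classical pathway genes, 0 passed in anti-RGMb against isotype mice, while all 4 were higher in isotype than in saline mice, by 0.48 ± 0.11 for C4b (adjusted p = 0.00257), 0.43 for C1ra, 0.36 for C1s1 and 0.32 for C4a. C4b and C4a are near-identical copies of each other, and C1ra and C1s1 have close paralogues too, so the split of signal among copies is uncertain. The C1s1 call was lost in 3 of the 17 fits without 1 mouse (adjusted p up to 0.0616).

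In the lectin pathway, which starts from sugar patterns, Masp1, a protease gene, fell by 0.45 ± 0.09 in anti-RGMb relative to isotype mice (adjusted p = 0.00113) and was 0.39 ± 0.09 higher in isotype than in saline mice (adjusted p = 0.00147). The ficolin gene Fcna was 1.19 higher in isotype than in saline mice (adjusted p = 8.75e-05) and did not pass in anti-RGMb against isotype mice (-0.21, adjusted p = 0.498). Masp2 was just past the threshold in isotype minus saline (-0.15, adjusted p = 0.0477), a call lost in 12 of the 17 fits that each left out 1 mouse (adjusted p up to 0.112) and in each experiment alone. The other 6 of the 9 genes did not pass in either comparison. Of the 7 genes of the terminal pathway, which builds the membrane attack complex, 0 passed in isotype against saline mice, and C8g alone passed in anti-RGMb minus isotype (-0.18, adjusted p = 0.0405). That call was lost in 9 of the 17 fits without 1 mouse (adjusted p up to 0.0959) and in each experiment alone.

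Among 14 measured regulators, 2 were higher and 2 lower in anti-RGMb than in isotype mice, and 2 were higher and 5 lower in isotype than in saline mice. Vtn, the gene of vitronectin, which blocks assembly of the membrane attack complex, was 0.71 higher in anti-RGMb than in isotype mice (adjusted p = 0.00164) and fell by 0.96 in isotype relative to saline mice (adjusted p = 3.33e-05). Cpn1, the catalytic subunit of carboxypeptidase N, which inactivates anaphylatoxins, was 0.33 higher in anti-RGMb than in isotype mice (adjusted p = 0.00167) and fell by 0.71 in isotype relative to saline mice (adjusted p = 2.06e-07). Cfi, which encodes the protease factor I, moved the other way, at -0.47 (adjusted p = 0.00182) and 0.50 (adjusted p = 0.000381), and so did Cd55b, a decay-accelerating factor gene, at -0.42 (adjusted p = 0.0327) and 0.49 (adjusted p = 0.00824). The anti-RGMb minus isotype call of Cd55b was lost in 6 of the 17 fits without 1 mouse (adjusted p up to 0.131), in each experiment alone and with array weights (-0.29, adjusted p = 0.15). Cfi and Cd55b were dim, below the lower quartile on 13 and 12 of the 17 arrays.

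Among the 9 other receptor genes, 1 was higher and 4 were lower in anti-RGMb than in isotype mice, and 5 were higher and 1 lower in isotype than in saline mice. Itgax and Itgam encode integrin chains that pair with a shared chain, Itgb2, into receptors for C3 fragments. Itgax fell by 1.04 in anti-RGMb relative to isotype mice (adjusted p = 3.64e-06) and was 2.13 higher in isotype than in saline mice (adjusted p = 5.83e-11). Itgb2 fell by 0.44 (adjusted p = 0.000161) and was 1.21 higher (adjusted p = 4.35e-10) in the same comparisons. Itgam was 2.52 higher in isotype than in saline mice (adjusted p = 1.55e-07), and its anti-RGMb minus isotype difference was -0.28 (adjusted p = 0.448). Vsig4, a macrophage receptor for C3 fragments, was dim on 9 arrays. It was 1.71 higher in isotype than in saline mice (adjusted p = 0.00224), a call lost in experiment 2 alone (1.15, adjusted p = 0.0541). Its anti-RGMb minus isotype difference was 0.12 (adjusted p = 0.873). This value joins opposite signs, negative in experiment 1 alone and positive in experiment 2 alone, neither past the threshold. Cr2, a receptor of B cells and follicular dendritic cells, fell by 0.44 in anti-RGMb relative to isotype mice (adjusted p = 0.0138). It did not pass without isotype mouse 2-2 (adjusted p = 0.0585) or in experiment 1 alone (-0.17, adjusted p = 0.592). It passed in experiment 2 alone. Cd93, once described as a C1q receptor, was 0.32 higher in anti-RGMb than in isotype mice (adjusted p = 0.00552). It fell by 0.31 in isotype relative to saline mice (adjusted p = 0.00358). Neither Cd93 difference passed in experiment 1 alone (0.19, adjusted p = 0.266, and -0.21, adjusted p = 0.146). Both passed in experiment 2 alone.

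**Figure D3:**
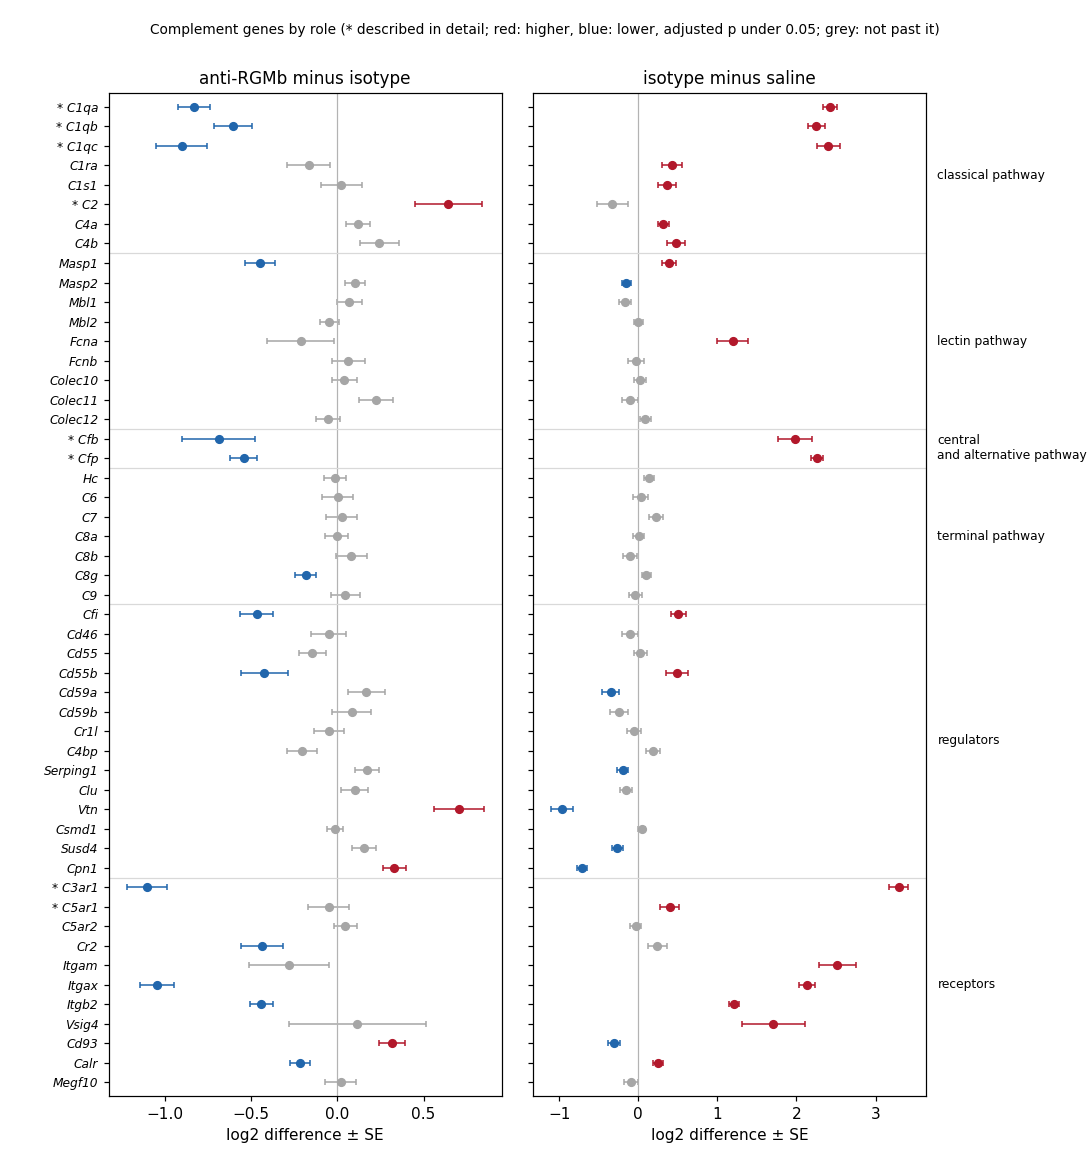
Log2 differences ± SE (horizontal axes) of all 51 measured complement genes, ordered by role, for anti-RGMb minus isotype on the left and isotype minus saline on the right; red points passed as higher, blue as lower and grey did not pass. The 8 genes described in detail carry an asterisk. In isotype minus saline the largest differences are those of C3ar1, Itgam, C1qa and C1qc, and terminal pathway genes lie near 0.

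Most markers of macrophages and monocytes moved with the C1q chains, Cfp and C3ar1, and so did some markers of other cells. Of 9 measured, 8 were lower in anti-RGMb than in isotype mice and 8 were higher in isotype than in saline mice. Cx3cr1 passed in neither. With experiment means subtracted, Cx3cr1 had r = -0.216 with the mean of the C1q chains, and the other 8 had 0.859 to 0.993. This r was 0.794 to 0.975 for eosinophil markers, -0.586 to 0.945 for alveolar macrophage markers and -0.249 to 0.932 for neutrophil markers. The mean relative level of the macrophage and monocyte markers ranged over mice from 0.67 to 1.19 with anti-RGMb, from 1.26 to 1.70 with isotype antibody and from -0.16 to 0.09 with saline. In anti-RGMb relative to isotype mice, Ms4a7 fell by 1.41, Folr2 fell by 0.73 and Ccr2 fell by 0.86. In isotype relative to saline mice they were higher by 2.96, 2.40 and 2.16, in the same order. Of 6 alveolar macrophage markers, 4 were higher and 1 lower in isotype than in saline mice, and 1 was lower in anti-RGMb than in isotype mice. Eosinophil markers (4 measured) were higher in isotype than in saline mice in all 4 cases, and 3 were lower in anti-RGMb than in isotype mice. Their mean relative level was 0.30 to 1.70 with anti-RGMb, 1.51 to 2.22 with isotype antibody and -0.16 to 0.09 with saline. Of 8 neutrophil markers, 3 were lower in anti-RGMb than in isotype mice and 4 were higher in isotype than in saline mice, among them Retnlg (2.02 log2 units), Ly6g (1.02) and Csf3r (0.91). The 4 that did not pass in isotype minus saline were Cxcr2 (0.60), S100a9 (0.03), S100a8 (-0.02) and Ngp (-0.56). Of all genes, 10.0% were lower and 11.1% higher in anti-RGMb than in isotype mice. In isotype against saline mice 14.6% were higher and 21.0% lower. The neutrophil mean was -0.58 to 0.92 with anti-RGMb, 0.09 to 1.00 with isotype antibody and -0.26 to 0.47 with saline. Of 8 lung epithelium markers, 4 were higher in anti-RGMb than in isotype mice, among them Ager by 0.27, and 5 were lower in isotype than in saline mice. None of 5 hepatocyte markers passed in any of the 3 comparisons, and 2 were below the lower quartile on all 17 arrays. The part of these cells in the complement differences was not tested.

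The differences were also set against Csf1r, a receptor gene of the macrophage lineage, within each array. Csf1r and these ratios were chosen after the values were seen, so their p-values describe these arrays and are no independent support. Relative to Csf1r, C3ar1 fell by 0.45 in anti-RGMb relative to isotype mice and was 1.86 higher in isotype than in saline mice (exact permutation, adjusted p = 0.007 each over the 14 ratio tests). C1qa fell by 0.19 (adjusted p = 0.0255) and was 0.98 higher (adjusted p = 0.007). The ratios of C1qb and C1qc did not pass in anti-RGMb against isotype mice (0.06, adjusted p = 0.48, and -0.25, adjusted p = 0.134) and were 0.81 and 0.97 higher in isotype than in saline mice (adjusted p = 0.007 each). That of Cfp was at 0.11 in anti-RGMb minus isotype (adjusted p = 0.162) and was 0.82 higher in isotype than in saline mice (adjusted p = 0.007).

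The genes most like each member were ranked by Pearson's r over the 17 arrays after subtraction of experiment means, with members left out. All these r rest on shared arrays and on group differences, so the r with group means subtracted too is given as within groups. The mean of the C1q chains was most like Folr2 (r = 0.993, within groups 0.826), Ly86, Lilr4b and Sla. C3ar1 was most like Ly86 (r = 0.994, within groups 0.911), Alox5ap, Fcgr2b and Itgb2. Cfb was most like Ms4a6c (r = 0.988, within groups 0.934), Il10ra, Ccl12 and Aif1. Cfp was most like Ccl9 (r = 0.996, within groups 0.718), Saa3, Ccl8 and Fcgr2b, and its r with Ccl8 was -0.124 within groups. C5ar1 was most like Fosl2 (r = 0.904, within groups 0.821), Socs3, Bcl3 and Timd4.

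C2 had another set of like genes, led by Bnc1 (r = 0.936, within groups 0.915), a transcription factor gene of mesothelium and other epithelia, and followed by Cldn15, Fam180a and Rspo1. Bnc1 lay at 0.78, -0.32 and 0.68 in anti-RGMb mice of experiment 1 and at -0.21, -0.04 and -0.09 in those of experiment 2, so the mice with high C2 were those with high Bnc1. Bnc1 was 0.54 ± 0.18 higher in anti-RGMb than in isotype mice (adjusted p = 0.0368) and did not pass in isotype against saline mice (-0.41, adjusted p = 0.0858). Because Bnc1 was picked for its likeness to C2 on these same arrays, its matching mice and its group differences are no independent support. The mesothelial marker Msln correlated with C2 at r = 0.844, was 0.96 higher in anti-RGMb than in isotype mice (adjusted p = 0.00193) and fell by 0.95 in isotype relative to saline mice (adjusted p = 0.000974). Msln stood at 0.56, -0.60 and 0.46 in anti-RGMb mice of experiment 1. It was picked out after its values were seen, and Wt1, the list's other mesothelial marker, did not pass (0.09 in anti-RGMb minus isotype, adjusted p = 0.606, and 0.05 in isotype minus saline, adjusted p = 0.802) and had r = 0.483 with C2. Fibroblast genes went both ways. Col1a1 fell by 0.40 in anti-RGMb relative to isotype mice (adjusted p = 0.0219) and was 0.61 higher in isotype than in saline mice (adjusted p = 0.00046). Pdgfra was 0.46 higher in anti-RGMb than in isotype mice (adjusted p = 0.00248) and fell by 0.52 in isotype relative to saline mice (adjusted p = 0.000414). Dcn and Lum did not pass in anti-RGMb minus isotype (0.42 and 0.66, adjusted p = 0.184 and 0.108). With C2, r was 0.667 for Dcn, 0.649 for Lum, 0.278 for Pdgfra, -0.17 for Col1a2 and -0.319 for Col1a1. Of the 7 markers in the fibroblast and mesothelium list, 2 were higher and 1 lower in anti-RGMb than in isotype mice, and their mean relative level ranged from -0.22 to 0.47 in anti-RGMb mice, from -0.43 to 0.06 in isotype mice and from -0.09 to 0.09 in saline mice. How much of the C2 difference goes with these markers was not tested.

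**Figure D4:**
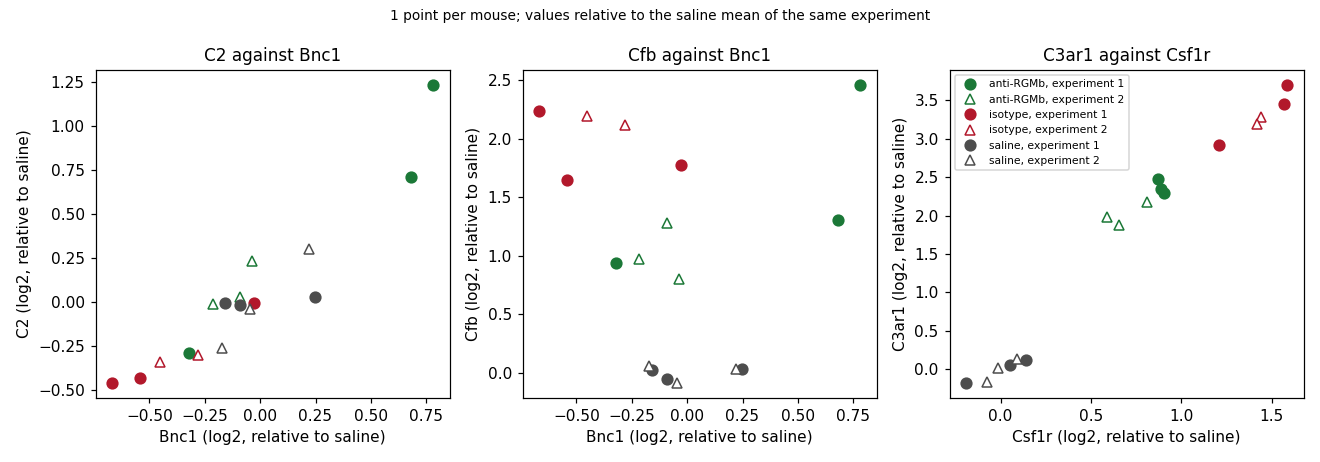
Relative levels (log2, each point 1 mouse) of C2 against Bnc1, of Cfb against Bnc1 and of C3ar1 against Csf1r. C2 and Bnc1, which was picked for its likeness to C2 on these arrays, are both highest in anti-RGMb mice 1 and 3 of experiment 1. C3ar1 and Csf1r order the groups as isotype, anti-RGMb and saline.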

How the data were processed

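The members, gene lists and ratios were chosen with earlier results of these data known. The deposited values are linear intensity per probe set, which the authors made with RMA (version not given) per the submitters' processing notes. The scale was read from the values. The log2 was taken with no added constant. Of 24679 probe sets, 21354 had 1 gene symbol, 1275 several and 2050 none, and those with 1 symbol gave 19751 genes, with the brightest of several kept for 893. RefSeq's GRCm38.p6 tables gave gene order and promoters.

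limma 3.58.1 in R 4.3.3 fitted a mean per group and a fixed term for the experiment to all 17 arrays (eBayes, prior degrees of freedom 4.32), which share 1 estimate of the spread. All tests were 2-sided, and p was adjusted by Benjamini-Hochberg within each comparison, with 0.05 as the threshold. A second model, fitted to all 17 arrays with a shared spread, gave differences within each experiment and their interaction. Results for an experiment alone come from a separate fit to the arrays of that experiment. The fit was tested on simulated data, where the share of false calls was above the threshold in each comparison. The number of arrays limits precision. Same-numbered mice correlated above 0.1 in 3 of 16 pairs (-0.6 to 0.297), so mice were treated as unpaired. No 2 arrays held identical values. Named genes were all members, per role up to 4 other complement genes with the largest called difference in isotype minus saline and up to 4 in anti-RGMb minus isotype, the 4 genes most like each profile, and up to 3 markers per described list. Csf1r, C5ar2, Msln and the markers named beyond 3 per list were picked out after their values were seen. The alternatives covered normalization, dim genes, an added constant, probe set choice, array weights, the block and single mice or experiments.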

Additional observations from a re-analysis of the deposited data

Results flagged for a closer look

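In 3 of the 24 sets of relative levels (8 genes in 3 groups) 1 mouse stood far from the others of its group by Dixon's test, where chance gives about 1 in 20. C1qa was at 1.881 in anti-RGMb mouse 1-2 and at 1.468 to 1.605 in the other anti-RGMb mice. C1qc was at 1.009 in anti-RGMb mouse 3-2 and at 1.47 to 1.695 in the others. Cfb was at 2.462 in anti-RGMb mouse 1 and at 0.8 to 1.301 in the others. Without that mouse the anti-RGMb minus isotype difference of Cfb was -0.94 (adjusted p = 3.96e-05, limma).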

How the results depend on the processing

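In the 17 fits that each left out 1 mouse, C1qa, C1qb, C1qc, Cfp and C3ar1 lost no call in any comparison. The number of members higher in anti-RGMb than in isotype mice ranged from 0 to 1 in these fits, and was 0 in experiment 1 alone and 0 in experiment 2 alone, because C2 was lost. In experiment 2 alone C1qb (-0.49, adjusted p = 0.0596) and C1qc (-0.89, adjusted p = 0.0547) also lost their calls in anti-RGMb minus isotype. In the second model, fitted to all arrays, their differences within experiment 2 passed (adjusted p = 0.0204 and 0.0112). With no replicate block, that is, no term for the experiment, 2 members were higher in isotype than in saline mice, 0 higher and 0 lower in anti-RGMb than in isotype mice, and 0 higher in anti-RGMb than in saline mice; C8g turned to 0.00117 in anti-RGMb minus isotype. Over all genes that fit called 0 in anti-RGMb minus isotype (73 at unadjusted p under 0.05, limma), 35 in isotype minus saline and 10 in anti-RGMb minus saline. With the term the counts were 4180, 7034 and 1284 in that order. In experiment 1 alone those counts were 1020, 4295 and 550, and 481 genes passed in anti-RGMb minus saline in experiment 2 alone and 2541 with array weights. With the mouse number within an experiment as the block, Cfb lost its call in anti-RGMb minus isotype (-0.69, adjusted p = 0.0546). C5ar1 in anti-RGMb minus saline passed with array weights (0.46, adjusted p = 0.00106) and when 1 mouse was left out: anti-RGMb mouse 3-2 gave 0.43 (adjusted p = 0.018), isotype mouse 2-2 gave 0.35 (adjusted p = 0.0458) and saline mouse 1 gave 0.40 (adjusted p = 0.0468). With each array centred on its median, 825 genes were higher and 809 lower in anti-RGMb than in saline mice, against 842 and 442. Other complement genes lower in anti-RGMb than in isotype mice numbered 3 with the dimmest 40% of genes left out, where genes left out are not counted. They numbered 1 in experiment 1 alone and 5 in experiment 2 alone, against 8. Those higher numbered 5 without anti-RGMb mouse 2, 0 in experiment 1 alone and 4 in experiment 2 alone, against 3. C8g, Cd55b (both in anti-RGMb minus isotype) and Masp2 (in isotype minus saline) lost their calls with the mouse number as the block (adjusted p = 0.0679, 0.0939 and 0.105), as C8g and Masp2 did with the experiment as a random block (0.0508 and 0.0576). The cause of these changes was not tested.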
